A study of Mus musculus with 8 samples.

Results

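The genes described here are 9 STAT and interferon signalling factors: Ifnar1, Ifnar2, Stat2, Stat3, Stat5b, Irf1, Irf3, Irf7 and Irf9. They were taken by gene symbol, from probe sets with that 1 symbol in the platform annotation, and make up 9 of 22180 genes measured. Where a gene had several probe sets, the one chosen by the highest mean over all 8 arrays would have been used, but each of the 9 had a single probe set. The list itself was drawn up with earlier results of these data known. RNA came from hippocampal neurons of C57BL/6J mouse embryos at E18.5, an inbred strain with no engineered allele named in the labels, cultured for 11 days. In 4 cultures the medium had been raised to 55 mM KCl for 4 h, which depolarises neurons and lets calcium in, and 4 cultures were untreated. All cultures had received L-glutamic acid and AraC, a compound that kills dividing cells. By the labels no 2 arrays share a mouse number, and replicate numbers 1 to 4 recur in both groups.

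Type I interferons act through a cell-surface receptor made of the subunits encoded by Ifnar1 and Ifnar2, and the Janus kinases bound to that receptor switch on STAT transcription factors. STAT2 and IRF9 belong to a complex that binds interferon-stimulated response elements, STAT3 carries signals of the gp130 cytokine receptors, and STAT5B those of growth hormone and related ligands. The interferon regulatory factors IRF3 and IRF7 drive interferon genes once nucleic acid sensors are engaged, and IRF1 is a target and effector of interferon gamma signalling. In the brain the pathway is best known in microglia and astrocytes, and neurons carry type I interferon receptors too.

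Values are log2 probe set signals from Affymetrix whole-transcript arrays after RMA, so a difference of 1 is a doubling, and signals of different genes cannot be ranked against each other. Array medians over all probe sets lay between 4.44 and 4.48. The mean of Irf3 over the 8 arrays lay within that range and those of Irf1 and Irf7 below it, and RMA compresses differences of such dim probe sets. Of 12 neuronal markers and 9 astrocyte markers, 0 averaged below the midpoint of the array medians (the median of the 8). Of 12 microglial markers, 8 did, and of all genes 9771 of 22180. The mean over the microglial list was 4.15 to 4.42 in KCl arrays and 4.29 to 4.32 in untreated arrays. In a mixed culture, fewer cells of a type and less RNA per cell cannot be told apart.

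In KCl-treated cultures Stat2 was lower, at 0.428 of its untreated level, and it was the single gene of the 9 to pass the test. Stat3, Ifnar1 and Irf1 each shifted in one direction in all 4 same-numbered pairs, by 0.50, -0.37 and -0.20 on the log2 scale, without passing. The 95% intervals of the changes of Ifnar2, Stat5b, Irf3, Irf7 and Irf9 include 0. At a Benjamini-Hochberg adjusted limma p under 0.05 over all genes, 0 of the 9 were called higher and 1 was called lower, against 1.34% of all genes called higher and 1.02% called lower. With the replicate number as a block these counts were again 0 and 1, against 2.43% and 2.01% of all genes. The median log2 change over the 9 genes was 0.057, and over all genes -0.011.

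**Figure D1:**
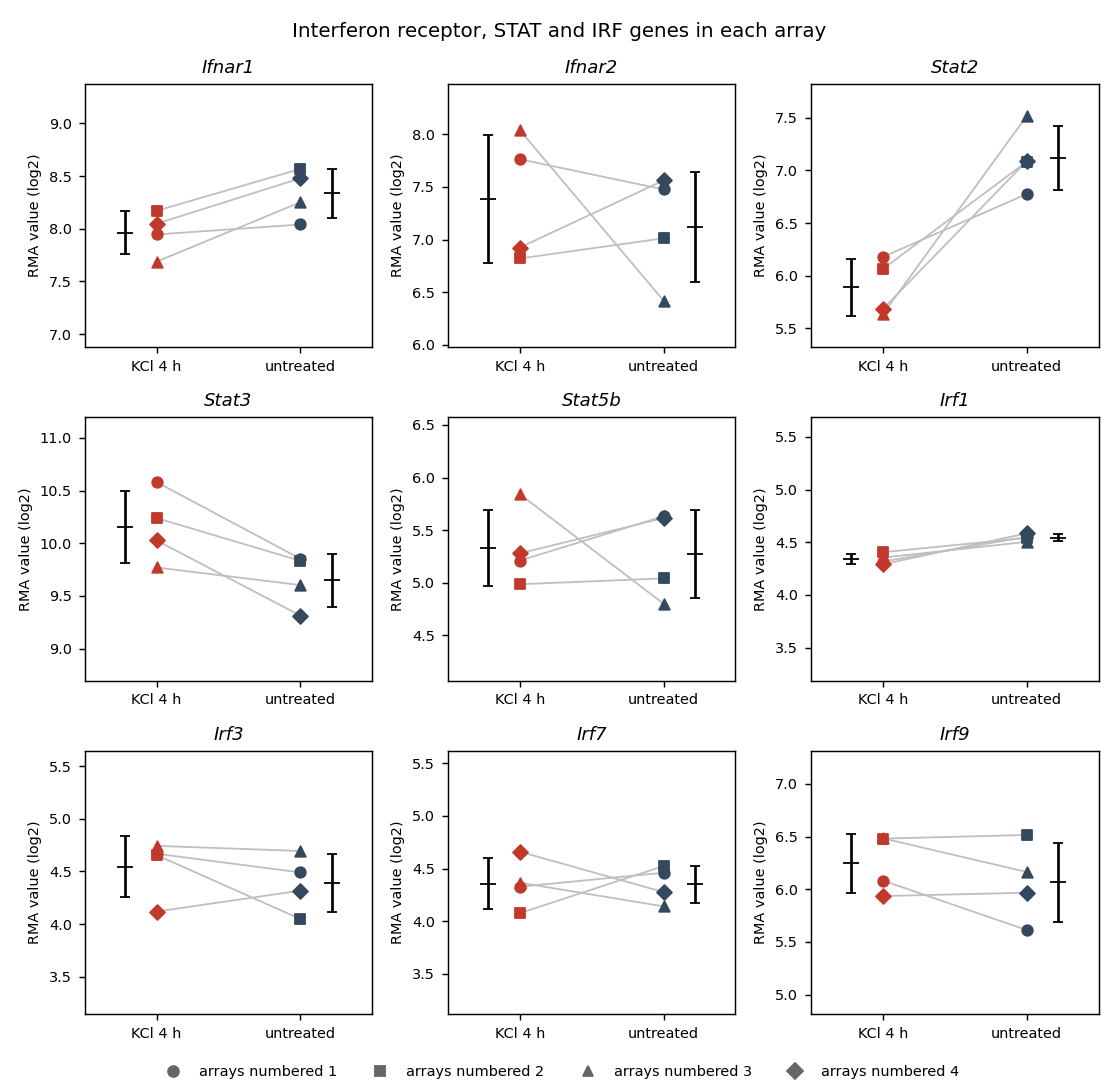
Log2 RMA values of the 9 genes in each of 4 KCl and 4 untreated arrays; grey lines join arrays of the same replicate number, bars are mean and SD, and every panel spans the same range on its y axis. For Stat2 and Irf1 the KCl arrays lie wholly below the untreated ones, with Stat2 at 5.63 to 6.18 in KCl arrays and 6.77 to 7.51 in untreated arrays.

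The annotated promoters of the 4 genes whose difference had the same sign in all 4 pairs are shown because STAT and IRF proteins act through short motifs in such sequences. The windows are RefSeq sequences of build GRCm38.p6, from 250 bases before to 50 bases after the gene start, read on the gene's strand. They were searched on both strands for the core of the interferon-stimulated response element (GAAA, any 2 bases, GAAA), the gamma-activated site TTCNNNGAA, the cyclic AMP response element TGACGTCA and the AP-1 element TGANTCA, and matches are in capitals.
Stat2, chr10:128270248-128270547, plus strand: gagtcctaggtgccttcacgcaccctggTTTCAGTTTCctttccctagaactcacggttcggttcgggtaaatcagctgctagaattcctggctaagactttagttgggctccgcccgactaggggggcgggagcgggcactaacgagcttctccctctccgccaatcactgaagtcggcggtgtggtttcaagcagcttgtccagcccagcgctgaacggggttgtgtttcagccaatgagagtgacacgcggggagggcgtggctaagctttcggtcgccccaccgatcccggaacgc
Irf1, chr11:53769764-53770063, plus strand: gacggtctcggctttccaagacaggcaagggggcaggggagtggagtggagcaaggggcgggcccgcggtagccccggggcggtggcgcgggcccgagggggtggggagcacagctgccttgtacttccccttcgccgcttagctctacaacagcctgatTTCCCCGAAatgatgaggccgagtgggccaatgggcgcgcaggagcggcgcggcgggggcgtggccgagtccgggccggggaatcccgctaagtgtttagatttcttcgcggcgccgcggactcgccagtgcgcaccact
Ifnar1, chr16:91484965-91485264, plus strand: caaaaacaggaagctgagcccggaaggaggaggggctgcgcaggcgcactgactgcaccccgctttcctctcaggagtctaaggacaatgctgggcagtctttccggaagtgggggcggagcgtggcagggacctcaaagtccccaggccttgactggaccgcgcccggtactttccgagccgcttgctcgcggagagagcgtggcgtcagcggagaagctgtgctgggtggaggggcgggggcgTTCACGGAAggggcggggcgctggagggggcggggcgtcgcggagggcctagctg
Stat3, chr11:100939491-100939790, minus strand: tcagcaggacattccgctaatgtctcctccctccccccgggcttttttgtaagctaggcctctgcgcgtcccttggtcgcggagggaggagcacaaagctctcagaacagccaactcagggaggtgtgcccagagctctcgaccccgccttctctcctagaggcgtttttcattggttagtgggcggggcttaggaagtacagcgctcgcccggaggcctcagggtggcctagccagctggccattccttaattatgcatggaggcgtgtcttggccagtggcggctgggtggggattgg

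The Stat2 window held 1 response element core, on the opposite strand, with its first base 222 bases before the gene start. The same motif was found in 3.44% of 32851 promoter windows of mouse genes. The Irf1 and Ifnar1 windows each held 1 gamma-activated site, 90 and 5 bases before the start, a motif found in 8.3% of windows. The Ifnar2 window held 1 as well, 214 bases before its start. The Stat3 window held none of the 4 motifs, nor did any window of Stat5b, Irf3, Irf7 or Irf9, or the second window of Irf1. The cyclic AMP response element (1.79% of windows) and the AP-1 element (7.81%) matched in none of the 12 windows of the 9 genes. A match is a stretch of letters and not a measured binding site.

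Ifnar1, the signalling subunit of the type I interferon receptor that carries the kinase TYK2, measured 7.95, 8.17, 7.69 and 8.05 in KCl arrays 1 to 4. In untreated arrays 1 to 4 it measured 8.04, 8.57, 8.25 and 8.48. The KCl array was the lower one in each of the 4 pairs, but the groups overlapped, since untreated array 1 lay within the KCl range. The log2 change was -0.37 (SE 0.149, 95% interval -0.71 to -0.03, limma adjusted p = 0.33), and with the replicate block the adjusted p was 0.133.

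Ifnar2, the subunit that binds interferon most tightly and carries JAK1, measured 7.76, 6.82, 8.04 and 6.92 in KCl arrays and 7.48, 7.01, 6.42 and 7.56 in untreated arrays. It had no common direction, with 2 pairs higher and 2 lower after KCl. Pair 3 alone differed by 1.62, as KCl array 3 was the highest and untreated array 3 the lowest of all 8. The log2 change was 0.27 (95% interval -0.51 to 1.05, adjusted p = 0.878), so no change was detectable at the spread of these arrays.

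Both receptor subunits lie in a cluster of cytokine receptor genes on chromosome 16, where the RefSeq gene order of GRCm38.p6 runs Ifnar2, Il10rb, Ifnar1, Ifngr2. These neighbours were looked at for their position, after the members' values were known. Ifngr2, a subunit of the interferon gamma receptor, averaged 9.49 ± 0.176 in KCl arrays and 9.85 ± 0.0599 in untreated arrays (SD, n = 4 each), a log2 change of -0.35. All KCl arrays lay below all untreated ones, yet the change did not pass (adjusted p = 0.158). Il10rb, a subunit shared by the IL-10 and interferon lambda receptors, had a log2 change of -0.03 (adjusted p = 0.985). The cluster thus held values on both sides of 0, and differences between its genes were not tested.

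Stat2, which encodes a partner of IRF9 in a DNA-binding complex, measured 6.18, 6.06, 5.63 and 5.68 in KCl arrays 1 to 4 and 6.77, 7.08, 7.51 and 7.09 in untreated arrays 1 to 4. The groups did not overlap: the highest KCl value was 6.18 and the lowest untreated value 6.77. The pair differences were -0.60, -1.02, -1.88 and -1.40. Stat2 averaged 5.89 ± 0.272 after KCl and 7.11 ± 0.304 without it (SD, n = 4 each), a log2 change of -1.23 (SE 0.185, 95% interval -1.65 to -0.80, adjusted p = 0.0157). With the replicate block the SE was 0.204 and the adjusted p 0.0272. The call was lost without KCl replicate 3 (log2 change -1.14, adjusted p = 0.0544) or KCl replicate 4 (-1.16, 0.0513) and without moderation of the variances (adjusted p = 0.0813), and it passed in the other 6 fits with 1 array left out. Without both arrays numbered 1 the change was -1.44 (adjusted p = 0.0127).

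By the size of its change Stat2 ranked 232 among the 22180 genes. In the RefSeq annotation Apof, an apolipoprotein gene, overlaps Stat2. The separate probe set of Apof stood at 4.05 ± 0.186 in KCl arrays and 3.97 ± 0.0985 in untreated arrays (SD, n = 4 each), and its log2 change was 0.08 (adjusted p = 0.902). Il23a, the next gene on the other side, had a log2 change of -0.14 (adjusted p = 0.72).

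The 3 genes whose profile over the 8 arrays was most like that of Stat2 were the zinc finger genes Zfp712 and Zfp763 and the lysosomal amino acid transporter gene Slc38a9. After each gene's own mean was taken away, they differed from Stat2 by a root mean square of 0.162, 0.167 and 0.168 log2 units. Since the likeness is measured on the same arrays, their lower level after KCl is a description. Zfp763 averaged 5.42 ± 0.184 in KCl arrays and 6.70 ± 0.295 in untreated arrays (SD, n = 4 each).

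Stat3, the factor downstream of the gp130 cytokines, measured 10.58, 10.24, 9.77 and 10.03 in KCl arrays and 9.85, 9.83, 9.60 and 9.31 in untreated arrays. It was higher after KCl in all 4 pairs, by 0.73, 0.41, 0.17 and 0.71, while the groups overlapped through KCl array 3. The log2 change was 0.50, a fold of 1.42 (SE 0.192, 95% interval 0.07 to 0.94), and it did not pass (adjusted p = 0.295). The replicate block lowered the SE to 0.126 and the adjusted p to 0.085. The 3 closest profiles to that of Stat3 were Sema6a, Serpinh1 and Taf7, with root mean square differences of 0.0785, 0.107 and 0.11 log2 units. Of these, Taf7, which encodes a subunit of the general transcription factor TFIID, had a log2 change of 0.51 that passed with the block (adjusted p = 0.0372) but not without it (0.105).

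Stat5b, which lies 2 genes from Stat3 on chromosome 11, measured 5.21, 4.99, 5.84 and 5.28 in KCl arrays and 5.63, 5.04, 4.80 and 5.61 in untreated arrays. Pairs 1, 2 and 4 were lower after KCl and pair 3 was higher by 1.04. As for Ifnar2, KCl array 3 was the highest and untreated array 3 the lowest of the 8. The log2 change was 0.06 (95% interval -0.50 to 0.61, adjusted p = 0.977). Between Stat5b and Stat3 lies Stat5a, the close relative of Stat5b, with a log2 change of 0.15 (adjusted p = 0.739).

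**Figure D2:**
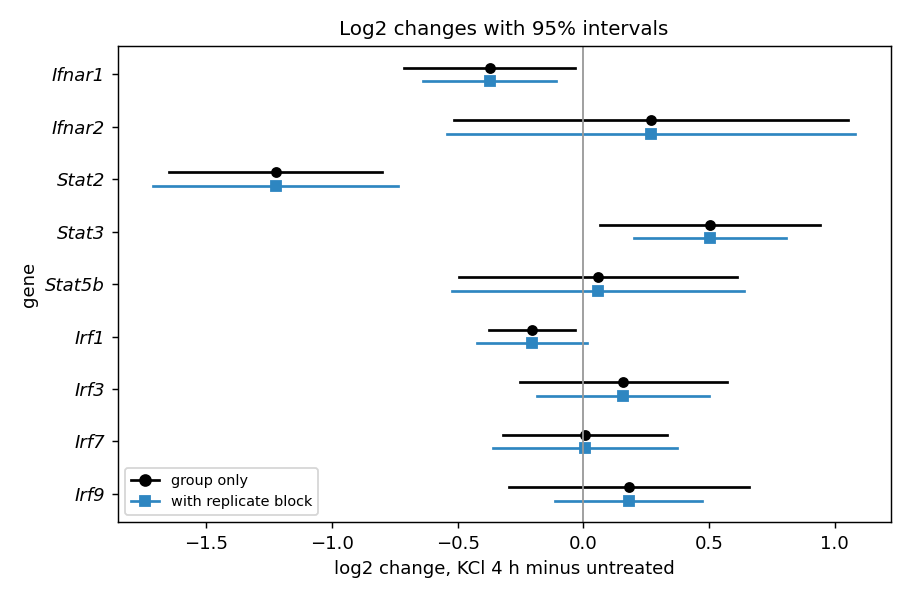
Log2 change (KCl 4 h minus untreated) of each gene with its 95% interval from limma, with group alone (black circles) and with the replicate number as a block (blue squares); 4 arrays a group. The interval of Stat2 runs from -1.65 to -0.80 with group alone, and those of Stat5b, Ifnar2, Irf3, Irf7 and Irf9 span 0.

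Irf1, an interferon-induced transcription factor, measured 4.32, 4.40, 4.35 and 4.29 in KCl arrays and 4.55, 4.54, 4.50 and 4.58 in untreated arrays. The groups were tight and did not overlap, and each pair was lower after KCl, by 0.14 to 0.29. The log2 change was small, -0.20 (SE 0.075, 95% interval -0.37 to -0.03), and it did not pass (adjusted p = 0.272, and 0.316 with the replicate block). This probe set lies near the array medians, where a transcript level cannot be told from background with these files.

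Irf9, which encodes a DNA-binding partner of STAT2, measured 6.08, 6.48, 6.48 and 5.94 in KCl arrays and 5.61, 6.52, 6.16 and 5.97 in untreated arrays. Pairs 2 and 4 differed by 0.03, with KCl lower, and pairs 1 and 3 were higher after KCl by 0.47 and 0.32. The log2 change of 0.18 had an interval of -0.30 to 0.66 (adjusted p = 0.858). Stat2 and Irf9, partners in 1 complex, thus had changes whose intervals do not overlap, although the difference between them was not tested.

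Irf3, the constitutive factor activated by nucleic acid sensing, measured 4.67, 4.65, 4.74 and 4.12 in KCl arrays and 4.49, 4.05, 4.69 and 4.32 in untreated arrays. The groups overlapped, with KCl array 4 well below the other KCl arrays. Its log2 change was 0.16 (95% interval -0.25 to 0.57, adjusted p = 0.856). Irf7, the interferon-inducible amplifier of that response, measured 4.33, 4.08, 4.37 and 4.66 in KCl arrays and 4.46, 4.52, 4.14 and 4.28 in untreated arrays. The 2 groups of Irf7 overlapped almost fully, with a log2 change of 0.01 (95% interval -0.32 to 0.33, adjusted p = 0.996).

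Counted over the 9 genes, KCl arrays lay wholly below untreated arrays for 2, Stat2 and Irf1, and wholly above for 0. Over all genes the shares were 4.33% below and 3.83% above. All 4 pairs had the same direction for 4 of the 9, against 24.2% of all genes.

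The rest of the pathway was read from lists drawn up beside the 9 genes. None of 3 other STAT genes, 3 other interferon regulatory factors, 3 Janus kinases, 9 other receptors, 22 ligands, 17 inhibitors and 13 sensors passed the test in either direction. At an unadjusted limma p under 0.05 the counts were 0, 1, 1, 1, 1, 2 and 2 in that order, and over all genes 2888 of 22180. By the adjusted p, 1.34% of all genes were called higher and 1.02% lower, so counts of 0 in these lists are near the general share. The median log2 changes of the 7 lists lay between -0.02 and 0.121.

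Of the kinases, Jak2 measured 9.58, 9.12, 9.69 and 9.51 in KCl arrays and 8.55, 8.66, 9.09 and 9.08 in untreated arrays. All KCl values of Jak2 were above all untreated ones, and its log2 change of 0.63 passed with the replicate block (adjusted p = 0.048) but not without it (0.124), nor with it once both arrays numbered 1 were left out (0.0985). Jak1 was at 0.12 (adjusted p = 0.697) and Tyk2 at -0.07 (0.948). Among the receptors Il6ra, which binds IL-6, had a log2 change of 0.78 that passed with the block as well (adjusted p = 0.032, 0.462 without it and 0.0721 with it but without both arrays numbered 1), and Lifr, the receptor of leukaemia inhibitory factor, one of -0.41 (0.465).

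Of the other interferon regulatory factors Irf2, a repressor of interferon-stimulated genes, had a log2 change of 0.44 (adjusted p = 0.197), Irf4 one of -0.14 and Irf8 one of -0.02. For Irf2 all KCl arrays lay above all untreated arrays. The remaining STAT genes Stat4 and Stat6 were at 0.09 (adjusted p = 0.875) and -0.12 (0.928).

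By smallest p, the inhibitor list was led by the SUMO ligase genes Pias4 (log2 change -0.57, adjusted p = 0.225), Pias2 (0.27, 0.37) and Pias3 (-0.26, 0.49). Socs3, the feedback inhibitor induced by STAT3, was chosen after its values were seen. It averaged 4.53 ± 0.177 in KCl arrays and 4.57 ± 0.25 in untreated arrays (SD, n = 4 each).

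The sensor list was led by the kinase gene Ikbke (log2 change 0.49, adjusted p = 0.224), the adaptor gene Sting1 (-0.34, 0.351) and the adaptor gene Myd88 (-0.46, 0.67). The ligand list was led by Ifna4 (-0.37, adjusted p = 0.151), Ifna11 (-0.21, 0.491) and Il11 (0.19, 0.504). Interferon alpha genes are near-identical copies, so their probe sets may not be specific to 1 gene. Of the 22 ligand genes, 17 averaged below the midpoint of the array medians, against 9771 of all 22180 genes.

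**Figure D3:**
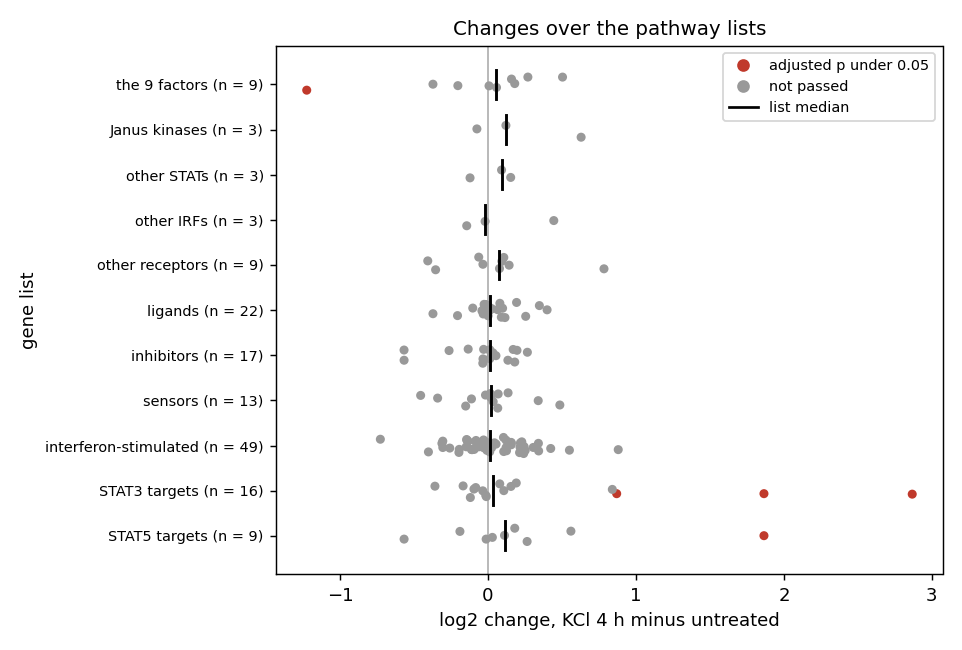
Log2 change (KCl 4 h minus untreated) of every measured gene in the pathway lists, 1 point a gene, with each list's median as a black bar and genes past the limma threshold in red. Stat2 is the only red point below 0, and Junb, Pim1 and Mcl1 are the red points above 0, Pim1 standing in both target lists.

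Interferon-stimulated genes, the usual readout of STAT2 and IRF9, did not pass in either direction: 0 of 49 measured were called higher and 0 lower, 3 had an unadjusted limma p under 0.05, and the median log2 change was 0.011. Over all genes 1.34% were called higher and 1.02% lower, and 2888 of 22180 had an unadjusted p under 0.05, so a count of 0 in a list of 49 is near the general share. Cmpk2, a mitochondrial nucleotide kinase gene, averaged 7.02 ± 0.425 in KCl arrays and 7.74 ± 0.393 in untreated arrays (SD, n = 4 each). It was lower in all 4 pairs, and its log2 change of -0.73 passed with the replicate block (adjusted p = 0.0263, and 0.238 without it). Parp12, an ADP-ribosyltransferase gene, stood at 6.85, 6.45, 6.60 and 6.51 in KCl arrays and 6.89, 5.63, 5.11 and 5.26 in untreated arrays. Untreated array 1 lay apart from its group. With all arrays the log2 change was 0.88 (adjusted p = 0.331, and 0.11 with the replicate block). It passed in 1 of the 8 fits with 1 array left out, without untreated replicate 1 (1.27, adjusted p = 0.0103). It passed as well without both arrays numbered 1 (1.19, adjusted p = 0.0155). Oas3, an antiviral synthetase gene, had a log2 change of 0.22 (adjusted p = 0.264), from means of 4.27 in KCl arrays and 4.05 in untreated arrays. Of the 49 genes, 16 averaged below the midpoint of the array medians, Oas3 among them, where RMA compresses differences. Over all genes 9771 of 22180 averaged below it.

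Genes known as targets of STAT3 were the list with the most calls, 3 of 16 higher and 0 lower. Over all genes 1.34% were called higher and 1.02% lower. The list was drawn up with earlier results of these data known, so its count is a description and not a test of STAT3. The other 13 genes did not pass, and the median log2 change over the 16 was 0.034. Pim1, a survival kinase gene that is a target of STAT3 and STAT5, measured 6.35, 6.09, 6.82 and 6.46 in KCl arrays and 5.02, 4.71, 4.37 and 4.16 in untreated arrays. It rose 3.64-fold (log2 change 1.86, SE 0.216, adjusted p = 0.00514). Mcl1, an anti-apoptotic gene of the Bcl2 family, lay at 9.53 to 9.69 in KCl arrays and 8.49 to 8.95 in untreated arrays and rose 1.83-fold (adjusted p = 0.0114). The third was Junb, a subunit of the AP-1 factor, at a log2 change of 2.87. All 3 calls held in the 8 fits with 1 array left out, and without both arrays numbered 1. All 3 are also known to respond to other signals, such as growth factors.

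The STAT5 target list, also drawn up with earlier results known, had 1 gene of 9 called higher, which was Pim1 again, and 0 lower. The shares of all genes were the same 1.34% and 1.02%. Bcl6, a transcriptional repressor gene chosen after its values were seen, had a log2 change of 0.56 that passed with the replicate block (adjusted p = 0.0448, and 0.676 without it). It was 0.23 without KCl replicate 1 and 0.82 without untreated replicate 1, and the call with the block was lost without both arrays numbered 1 (adjusted p = 0.125). Cish, the classic STAT5-induced inhibitor, was chosen after its values were seen and had a log2 change of 0.18 (adjusted p = 0.932).

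The astrocyte marker Slc1a2, a glutamate transporter gene, was the single cell type marker to pass. Its log2 change was -0.78 (adjusted p = 0.0479), and of the 8 fits with 1 array left out it passed in 1, without untreated replicate 2 (adjusted p = 0.0212), and it did not pass with the replicate block (0.062). None of 12 microglial, 7 oligodendrocyte-lineage, 9 endothelial and pericyte or 12 neuronal markers passed in the limma fit by group alone. In that order, 0, 0, 0 and 3 of them had an unadjusted p under 0.05. Over all genes 1.34% were called higher and 1.02% lower, and 2888 of 22180 had an unadjusted p under 0.05. Counts of 0 passing in such short lists are near the general share. The mean over 9 astrocyte markers was 8.75 to 9.29 in KCl arrays and 8.71 to 9.62 in untreated arrays. The mean over 12 neuronal markers was 9.45 to 9.98 and 9.46 to 9.98 in the same order of groups. The part of either cell type in the change of Stat2 was not tested.

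The interferon-stimulated genes were also arranged by replicate number. The mean over the 49 genes was 5.59, 5.48, 5.11 and 4.97 in KCl arrays 1 to 4, and 5.68, 5.42, 4.98 and 4.94 in untreated arrays 1 to 4. Arrays numbered 1 and 2 were higher than arrays numbered 3 and 4 in both groups. For 18 of the 49 genes all 4 arrays numbered 1 or 2 lay above all 4 numbered 3 or 4. The same held for 4.66% of all genes. It also held for 4 of the 9 other receptors and 4 of the 13 sensors. The reverse held for 0 of the 49 and for 3.2% of all genes. This arrangement was noticed in the data and is given as a description without a test.

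Bst2 and Ifi27 are examples chosen after their values were seen. Bst2, which encodes the antiviral membrane protein tetherin, measured 7.27, 7.60, 5.43 and 5.24 in KCl arrays 1 to 4 and 7.31, 7.15, 5.83 and 5.36 in untreated arrays 1 to 4. Ifi27 measured 7.51, 7.68, 6.05 and 5.66 in KCl arrays and 8.08, 7.45, 6.02 and 5.31 in untreated arrays. Among the 9 signalling factors themselves 0 were arranged this way, against 4.66% of all genes, so a count of 0 in a list of 9 is near the general share.

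Means over other marker lists varied with the replicate number too. The mean over 9 endothelial and pericyte markers was 4.93, 4.96, 4.48 and 4.43 in KCl arrays 1 to 4. In untreated arrays it was 4.84, 4.97, 4.34 and 4.33. For 4 of these 9 genes, Kdr, Rgs5, Pdgfrb and Col1a1, arrays 1 and 2 lay wholly above arrays 3 and 4. Pecam1, Cldn5, Tek, Cdh5 and Flt1 were not arranged this way, and these 5 averaged below the midpoint of the array medians. The widest spread was that of Kdr, chosen after its values were seen. The SD of means over same-numbered arrays was 1.52 for Kdr and 0.508 to 0.553 for Rgs5, Pdgfrb and Col1a1. It was at most 0.172 for the 5 dim genes. Kdr measured 7.91, 8.34, 5.62 and 5.18 in KCl arrays and 7.76, 8.17, 5.42 and 5.48 in untreated arrays. For the 9 astrocyte markers the mean was 9.29, 8.93, 8.90 and 8.75 in KCl arrays and 9.62, 9.07, 8.87 and 8.71 in untreated arrays. Of these 9, 3 had arrays 1 and 2 wholly above arrays 3 and 4. The neuronal list mean ran the other way, with 9.45, 9.65, 9.98 and 9.81 in KCl arrays and 9.46, 9.69, 9.98 and 9.89 in untreated arrays. In arrays 1 and 2, however, 1 of its 12 genes lay wholly above and 1 wholly below. The GABA synthesis genes Gad2 and Gad1, chosen after their values were seen, varied most. The SD of their means over same-numbered arrays was 0.845 and 0.655, and at most 0.325 in the rest of the list. The mean over 7 oligodendrocyte-lineage markers was 4.76, 4.86, 5.14 and 5.07 in KCl arrays, higher in arrays 3 and 4. In untreated arrays it was 4.80, 5.04, 4.95 and 4.93, without that order. Of the 12 microglial markers, 0 had arrays 1 and 2 wholly above arrays 3 and 4. In 1, the chemokine receptor gene Cx3cr1, chosen after its values were seen, they lay wholly below. Over all genes the shares were 4.66% above and 3.2% below, and counts of 0 and 1 in a list of 12 are close to them. Of the 12, 8 averaged below the midpoint of the array medians. The part of these cells in the level of the interferon-stimulated genes was not tested.

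**Figure D4:**
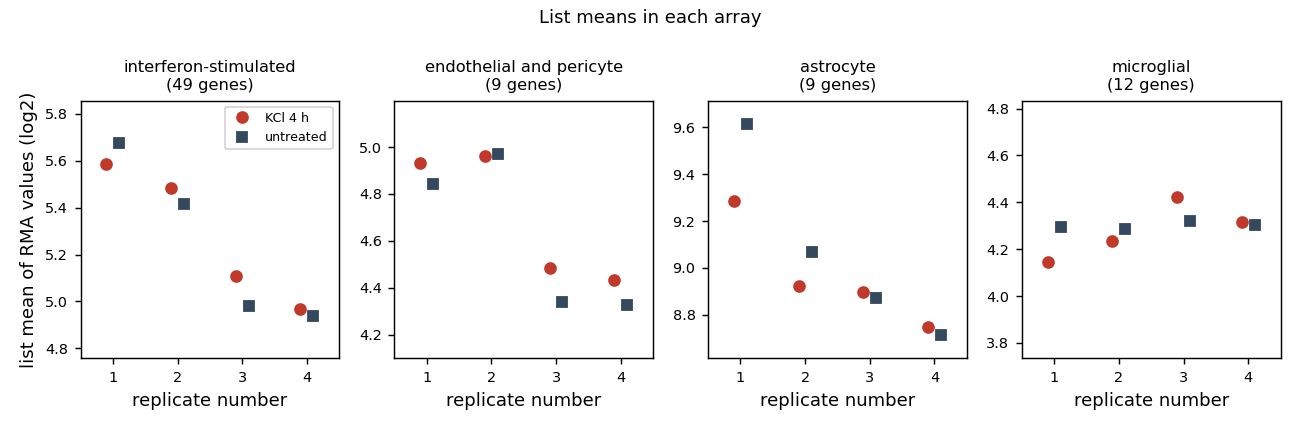
Mean log2 RMA value over each list by replicate number, in KCl arrays (red circles) and untreated arrays (dark squares); 1 point an array, all panels spanning the same range. The interferon-stimulated list runs at 5.42 to 5.68 in arrays numbered 1 and 2 and at 4.94 to 5.11 in arrays numbered 3 and 4, with little separation of the treatments.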

How the data were processed

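The values used are on a log2 scale, 1 per probe set and array, as the authors deposited them for 8 arrays. The submitters' processing notes name RMA and Partek without versions or settings. RNA was labelled with the WT Plus kit, as the labels' protocols state. Scanner files were not analysed here. Of 34472 probe sets, 23521 had 1 gene symbol in the platform annotation and 1814 had several. For genes with several probe sets the one of highest mean was kept, which left 22180 genes.

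KCl and untreated arrays were set against each other with limma 3.58.1 (R 4.3.3) in a model of group alone. Its p-values are two-sided and were adjusted over all 22180 genes after Benjamini and Hochberg, with a threshold of 0.05. The fit by group alone was tested on simulated data with independent noise in each array. That simulation did not cover the correlation between same-numbered arrays or the fit with the replicate block. Members and lists were chosen with earlier results of these data known, and no list received a test of its own. All 9 members are named; of each list, genes past the threshold are named, or otherwise up to 3 with the smallest p, and any other gene was picked with its values in view, as the text says there. For the 2 members of largest change, the 3 closest profiles are named.

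The deviations of same-numbered arrays from their group means correlated at 0.64, 0.23, 0.41 and 0.37 across genes, all over 0.1, while the highest value between differently numbered arrays was 0.302, above that of pair 2. By the rule of 0.1 a second fit took the replicate number as a block. No label says what arrays of the same number share. Nothing says the cultures came from separate preparations beyond the mouse numbers, so p-values measure the spread between these arrays, whose number limits the precision. Alternatives are given in the closing section. Figures were drawn with matplotlib 3.10.9.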

Additional observations from a re-analysis of the deposited data

Results flagged for a closer look

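Irf3 had 1 array far from the others of its group. In KCl arrays it measured 4.12 in the array numbered 4, while the other 3 lay between 4.65 and 4.74, a gap of 0.86 of the whole range. The untreated array of the same number measured 4.32, within its group. About 1 in 20 groups is singled out in this way by chance, and 18 groups were looked at.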

How the results depend on the processing

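The count of the 9 genes called higher was 0 under all 17 alternatives, and the count called lower was 1 under all but 3 of them. The exceptions were the linear model without moderation, with 0, and the fits without KCl replicate 3 or 4; over the 8 fits with 1 array left out the count lay between 0 and 1. With the replicate block 0 were called higher and 1 lower, and the block changed the call of none of the 9 genes; among the other genes named it changed those of Jak2, Il6ra, Cmpk2, Vegfa, Bcl6, Taf7, Gad2 and Slc1a2. The log2 change of Stat2 lay between -1.44 and -1.09 over its 17 alternatives, with adjusted p of 0.0108 to 0.0813. Stat3 lay between 0.36 and 0.63 and Ifnar1 between -0.47 and -0.28, never past the threshold. With 1 array left out, Ifnar2 lay between 0.04 (without untreated replicate 3) and 0.46 (without KCl replicate 2), Irf9 between 0.03 (without untreated replicate 1) and 0.33 (without untreated replicate 2), and Irf3 between 0.05 (without untreated replicate 2) and 0.30 (without KCl replicate 4), none past the threshold. Stat5b ranged from -0.11 to 0.18 and Irf7 from -0.09 to 0.10 with 1 array left out, which turned the direction of each in 3 fits: Stat5b without KCl replicate 3, untreated replicate 2 or untreated replicate 3, and Irf7 without KCl replicate 4 (-0.094), untreated replicate 3 or untreated replicate 4. Irf1, Irf3 and Irf7 fell outside the fit on brighter genes. Signal over background could not be assessed from summarised values.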

Other observations

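Vegfa, an angiogenic growth factor gene in the STAT3 target list that was chosen after its values were seen, averaged 9.14 ± 0.304 in KCl arrays and 8.30 ± 0.422 in untreated arrays (SD, n = 4 each). It was higher after KCl in 4 of 4 pairs and did not pass over all genes (limma adjusted p = 0.123), but it passed with the replicate block (0.039) and without untreated replicate 3 (0.0421). With the block but without both arrays numbered 1 it did not pass (0.101). Of the neuronal markers, Neurod6, a transcription factor gene of excitatory neurons, had a log2 change of -0.64 (adjusted p = 0.0843), with all KCl arrays below all untreated arrays. Prox1, a dentate granule cell factor gene, had a log2 change of 0.34 (adjusted p = 0.188), again with the groups apart. Gad1, which encodes a GABA-synthesising enzyme, had a log2 change of 1.08, 2.12-fold, and was higher after KCl in 4 of 4 pairs (adjusted p = 0.353, and 0.0765 with the replicate block). Gad2, which encodes the other such enzyme and was chosen after its values were seen, had a log2 change of -0.49 and was lower in 4 of 4 pairs. It passed with the replicate block (adjusted p = 0.0458, and 0.832 without it) but not once both arrays numbered 1 were left out as well (0.113), and with 1 array left out its change lay between -0.88 without untreated replicate 1 and -0.11 without KCl replicate 1.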
